A study of Mus musculus with 6 samples.

Results

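Rn7sk, Rmrp, Rpph1, Rny1, Rny3 and Terc are 6 short noncoding RNA genes whose products work inside ribonucleoprotein particles (RNPs), complexes of an RNA and its proteins. They were taken by name and make up 6 of the 46078 genes in the count table. The libraries hold total RNA, depleted of ribosomal RNA, from the cells that an EDTA and DTT wash released from mouse colon. Wild-type mice (3 libraries) were compared with mice lacking Lingo3 (Lingo3-/-, 3 libraries), a gene for a leucine-rich repeat membrane protein. Both groups were 2 months old and untreated. The labels name no strain, sex or knockout allele, and do not say that each library is a separate animal, so the tests rest on the spread between libraries, and part of that spread may be technical.

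RNA polymerase III makes short untranslated RNAs, and 5 of the 6 genes belong to it, while Terc is made by RNA polymerase II. Rn7sk (7SK) holds the elongation kinase P-TEFb in an inactive particle with HEXIM, LARP7 and MEPCE. Rmrp and Rpph1 are the RNA parts of the endonucleases RNase MRP, which acts on precursor ribosomal RNA, and RNase P, which trims the leader from precursor tRNAs. They share most of their protein subunits. Rny1 and Rny3 are Y RNAs, which bind the Ro60 and La proteins. Terc carries the template from which telomerase copies the telomere repeat.

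The sequences of the transcripts that the results turn on are shown first, because they show where reads could be shared with a copy or an overlapping gene. All are GENCODE M21 transcripts on GRCm38, written 5′ to 3′ as DNA letters. Rn7sk (ENSMUSG00000065037) lies at chr9:78175303-78175633 on the minus strand and is 331 bases long. Its first 100 bases are printed, and capitals mark the 3 GATC motifs, which lie in the 5′ hairpin region known to bind HEXIM.
Rn7sk: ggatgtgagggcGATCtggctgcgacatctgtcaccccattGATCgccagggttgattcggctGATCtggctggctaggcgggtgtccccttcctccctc
Rmrp (ENSMUSG00000088088) lies at chr4:43492788-43493058 on the minus strand and is 271 bases long. Capitals mark the 159 bases that lie within the span of Ccdc107, a protein-coding gene on the opposite strand.
Rmrp: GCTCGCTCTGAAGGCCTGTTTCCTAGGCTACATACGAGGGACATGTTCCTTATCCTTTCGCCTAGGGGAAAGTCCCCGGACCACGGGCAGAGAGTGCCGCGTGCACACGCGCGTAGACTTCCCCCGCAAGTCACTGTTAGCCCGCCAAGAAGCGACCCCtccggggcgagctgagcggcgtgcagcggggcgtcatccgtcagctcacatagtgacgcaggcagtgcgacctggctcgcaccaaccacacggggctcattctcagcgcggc
Rpph1 (ENSMUSG00000092837) lies at chr14:50807449-50807767 on the minus strand and is 319 bases long. From base 36 to base 319 it lies within the span of Ccnb1ip1 on the same strand (284 bases). Its first 100 bases are printed, with those inside that span in capitals.
Rpph1: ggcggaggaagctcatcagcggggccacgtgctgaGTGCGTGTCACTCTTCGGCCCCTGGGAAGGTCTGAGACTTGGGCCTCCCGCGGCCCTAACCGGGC
The Y RNA genes are 6344 bases apart on chromosome 6. Rny1 (ENSMUSG00000065701) lies at chr6:47788069-47788180 on the minus strand (112 bases), and Rny3 (ENSMUSG00000064945) at chr6:47781624-47781725 on the plus strand (102 bases). Capitals mark GGTCCGA and CTTGAC, from opposite sides of the lower stem that holds the Ro60 site, and the 3′ TTTT, the end at which polymerase III stops and which La binds.
Rny1: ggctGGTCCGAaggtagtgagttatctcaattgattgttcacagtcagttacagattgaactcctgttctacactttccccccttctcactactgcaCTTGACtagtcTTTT
Rny3: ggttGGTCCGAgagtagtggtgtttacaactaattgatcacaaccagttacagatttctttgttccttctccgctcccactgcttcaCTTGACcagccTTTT
The pair aligned over 112 columns with 81 identical bases (72.3%). Among 3532 short noncoding transcripts, which include the members themselves, GGTCCGA was present on the transcript strand in 3 (0.0849%, and 0.227% on either strand). Rny1 and Rny3 are among these 3. CTTGAC was present in 128 (3.62%, and 7.48% on either strand), again with Rny1 and Rny3 among them. The palindrome GATC was present in 28.5%. Terc (ENSMUSG00000064796) lies at chr3:96414437-96414859 on the minus strand, with 423 bases in GENCODE and 397 in RefSeq.

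Gene counts ran from 25010618 to 28029583 in the wild-type libraries and from 11868000 to 17200931 in the knockout libraries. Mitochondrially encoded genes took 46.8% ± 1.60 of them in wild type and 35.5% ± 0.823 in the knockout (SD, n = 3 each), without overlap between the groups. For that reason each RNA is given as a share of all gene counts (in percent, or as CPM, which divides by the library's gene counts), which moves with the mitochondrial share, and as CPM scaled by the trimmed mean of M-values (TMM-CPM). Reads without a unique alignment were 36.7% ± 0.184 of all reads in wild type and 32.6% ± 0.309 in the knockout (SD, n = 3 each), a further difference that ran with genotype. Markers of colon epithelium were high in all 6 libraries. Their summed level was 6117 to 6708 CPM in wild type and 7979 to 9501 CPM in the knockout. By the edgeR test (adjusted p under 0.05), 1 of 10 was higher, which is near the background. Over all tested genes that test called 9.43% higher and 5.97% lower, the backgrounds for the marker counts that follow. T cell markers summed to 238 to 310 CPM in wild type and 131 to 214 CPM in the knockout (0 of 10 higher, 8 lower). B and plasma cell markers summed to 52.6 to 120 CPM and 33.7 to 45.2 CPM (0 of 10 higher, 5 lower). Of 9 tested myeloid markers 1 was higher and 2 were lower (80.5 to 90.05 CPM in wild type, 71.2 to 249.8 CPM in the knockout), of 10 fibroblast markers 0 passed (424 to 1098 CPM and 342 to 764 CPM), and of 8 tested markers of smooth muscle and endothelium 3 were lower (21.5 to 28.5 CPM and 19.5 to 22.8 CPM). No list had a gene at 0 in all libraries. The summed levels of the epithelial, T cell and B and plasma cell lists did not overlap between the groups, while those of the other lists did. Of the 16856 single genes tested, 41.5% were higher in the knockout without overlap in this measure, and 4.40% were lower. The part of these cell types in the results below was not tested. In such bulk libraries, fewer cells of a type and less RNA per cell cannot be told apart.

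The RNAs spanned a wide range of levels. Per kilobase of transcript, Rn7sk was highest at 53355 CPM over the 6 libraries, followed by Rpph1 at 10854 CPM, Rmrp at 514 CPM, Rny3 at 47.3 CPM, Rny1 at 10.5 CPM and Terc at 7.34 CPM. By count, without correction for length, Rn7sk ranked 4 among all genes and 1 among nuclear genes, and Rpph1 ranked 12 and 7. The column purification and library protocol may recover RNAs as short as the Y RNAs poorly, which was not tested. The levels of the Y RNAs here cannot be taken as their abundance in the cell.

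Levels of Rn7sk, Rmrp, Rpph1 and Rny3 fell in the Lingo3-/- libraries, to between 35.7% and 56.8% of the wild-type level after TMM scaling. Rny1 and Terc had lower means in the knockout but did not pass the test. Thus 4 of 6 fell and 0 rose (edgeR quasi-likelihood test, Benjamini-Hochberg adjusted p under 0.05), where 5.97% of the 16856 tested genes fell and 9.43% rose. All 6 genes passed the filter on low counts. Their median log2 fold change (knockout over wild type) was -1.01, and that of all tested genes was -0.03. As shares of all gene counts, the groups did not overlap for 4 of 6 (background for lower shares, 4.40%). As TMM-CPM, and likewise as shares of nuclear gene counts, they did not overlap for 6 of 6 (backgrounds 16.0% and 14.9%).

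**Figure D1:**
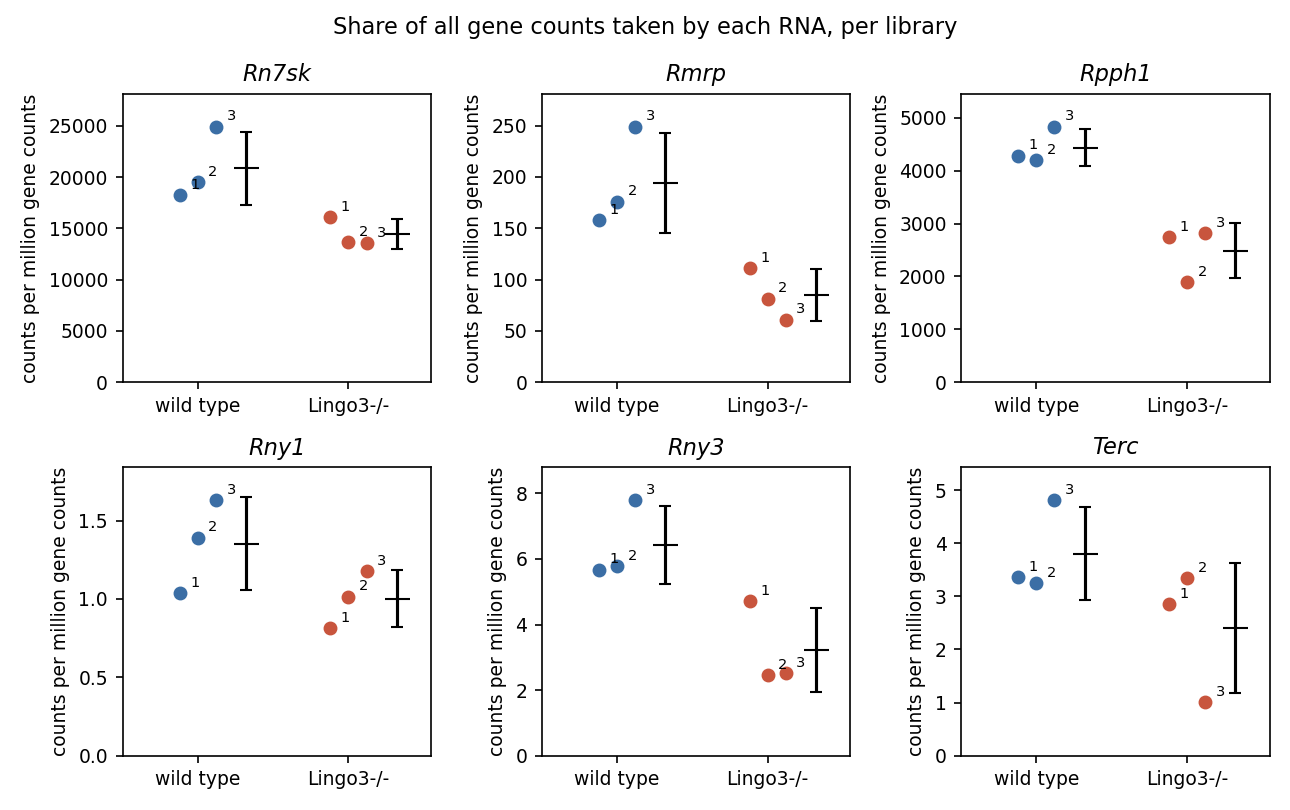
CPM of all gene counts (vertical axes, each from 0) of the 6 RNAs in the 3 wild-type and 3 Lingo3-/- libraries; points are libraries with their replicate number, horizontal ticks are means and whiskers are SD. The groups do not overlap for Rn7sk, Rmrp, Rpph1 and Rny3, and overlap for Rny1 and Terc.

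Rn7sk, the scaffold that keeps P-TEFb inactive, took 1.82%, 1.95% and 2.49% of all gene counts in wild-type replicates 1, 2 and 3. It took 1.61%, 1.37% and 1.36% in knockout replicates 1, 2 and 3. All knockout libraries lay below all wild-type libraries, with means of 1.44% ± 0.143 and 2.09% ± 0.355 (SD, n = 3 each; two-sided exact permutation test, p = 0.1, the smallest that 3 against 3 allows). After TMM scaling the level was 23033 ± 3603 CPM in wild type and 13093 ± 1072 CPM in the knockout (SD, n = 3 each). The log2 fold change was -0.81 ± 0.18 (SE; 95% interval -1.21 to -0.42; edgeR adjusted p = 0.0123). Without knockout replicate 3 it was -0.80, and the edgeR adjusted p rose to 0.0658.

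Rmrp, the RNA of RNase MRP, had the lowest fold change of the 6. It took 158, 176 and 249 CPM of all gene counts in the wild-type libraries and 111, 81.4 and 60.9 CPM in the knockout libraries. The groups did not overlap, and knockout replicate 3 was the lowest library. As a share this was 0.0194% ± 0.00483 against 0.00846% ± 0.00254 (SD, n = 3 each; two-sided exact permutation test, p = 0.1). The TMM-scaled level was 214 ± 49.9 CPM in wild type and 76.3 ± 20.7 CPM in the knockout, a log2 fold change of -1.48 ± 0.23 (95% interval -2.02 to -0.95; edgeR adjusted p = 0.00735). Of all tested genes, 0.736% had a lower fold change.

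Rpph1, the RNA of RNase P, took 0.429%, 0.420% and 0.483% of all gene counts in wild type and 0.274%, 0.189% and 0.283% in the knockout. Its wild-type libraries were close together, and knockout replicate 2 was the lowest. The means were 0.444% ± 0.0344 and 0.249% ± 0.0518 (SD, n = 3 each; two-sided exact permutation test, p = 0.1). After TMM scaling, Rpph1 went from 4906 ± 427 CPM in wild type to 2264 ± 521 CPM in the knockout (log2 fold change -1.12 ± 0.19; 95% interval -1.53 to -0.70; edgeR adjusted p = 0.00372).

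The Y RNAs were detected with far fewer counts. Rny3 had 142, 162 and 196 counts in wild type and 81, 41 and 30 in the knockout. As shares these were 5.68, 5.78 and 7.79 CPM against 4.71, 2.45 and 2.53 CPM, with means of 6.42 ± 1.19 and 3.23 ± 1.28 CPM (SD, n = 3 each; two-sided exact permutation test, p = 0.1). Knockout replicate 1 was nearest to the wild-type libraries. The log2 fold change was -1.26 ± 0.25 (95% interval -1.81 to -0.72; edgeR adjusted p = 0.00785). Rny1 had 26, 39 and 41 counts in wild type and 14, 17 and 14 in the knockout, or 1.04, 1.39 and 1.63 CPM against 0.814, 1.01 and 1.18 CPM. Knockout replicate 3 lay above wild-type replicate 1, so the groups overlapped (1.35 ± 0.297 and 1.00 ± 0.183 CPM, SD, n = 3 each; two-sided exact permutation test, p = 0.2). Its log2 fold change of -0.73 ± 0.31 did not pass (95% interval -1.40 to -0.06; edgeR adjusted p = 0.126), an interval that also holds the value of Rny3.

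Terc, the telomerase RNA, had 84, 91 and 121 counts in wild type and 49, 56 and 12 in the knockout. This was 3.36, 3.25 and 4.81 CPM in wild type and 2.85, 3.34 and 1.01 CPM in the knockout. Knockout replicate 2 lay within the wild-type range, and replicate 3 was far below the other knockout libraries. The means were 3.81 ± 0.873 and 2.40 ± 1.23 CPM (SD, n = 3 each; two-sided exact permutation test, p = 0.2). Its log2 fold change of -0.91 ± 0.33 did not pass (95% interval -1.64 to -0.19; edgeR adjusted p = 0.0856). The call depended on the tool: DESeq2 gave -0.92 with an adjusted p of 0.0426. In the authors' deposited table Terc had a log2 fold change of -0.91 (adjusted p = 0.0369). The authors' deposited table called 5 of the 6 lower, all but Rny1 (-0.71, adjusted p = 0.261), with a background of 6.72%.

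**Figure D2:**
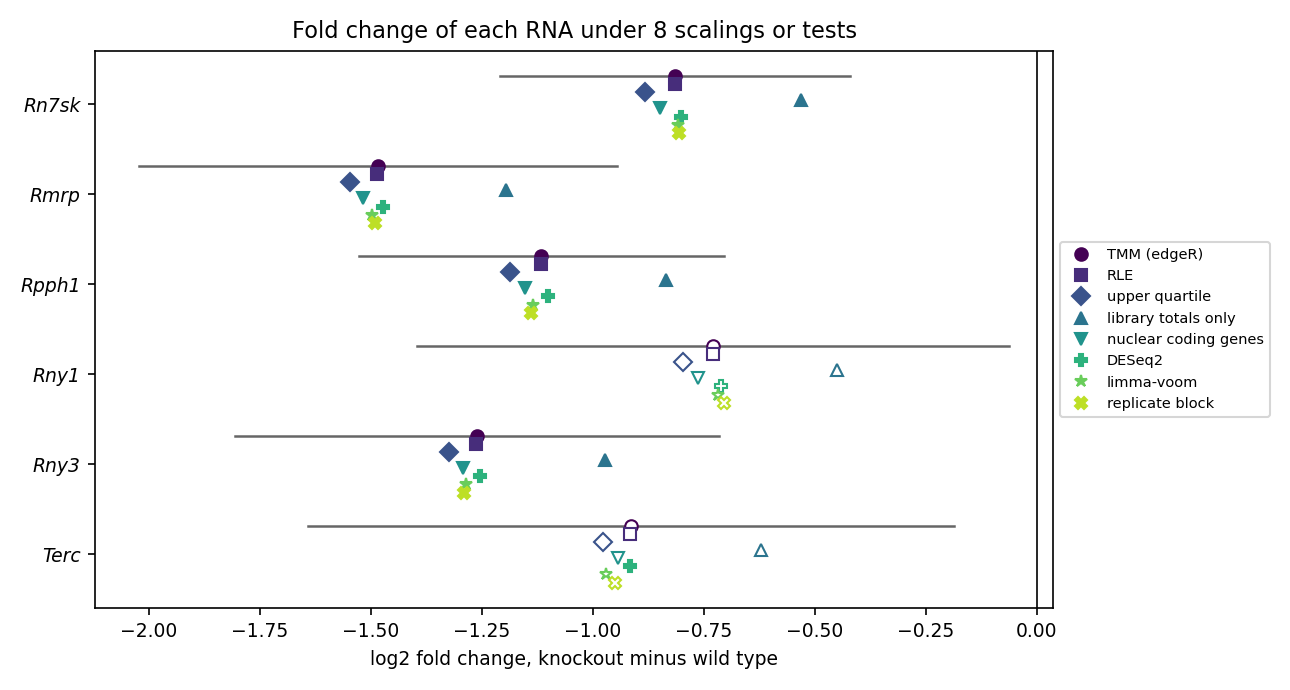
Log2 fold change (knockout over wild type, horizontal axis) of each RNA under 8 scalings or tests, each with its own symbol, filled where the adjusted p was under 0.05; grey lines are the 95% intervals of the edgeR fit with TMM factors. All values lie below 0, those of the TMM fit from -0.73 for Rny1 to -1.48 for Rmrp, and the intervals of any pair of RNAs overlap.

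Together the 6 RNAs took 2.27%, 2.39% and 3.00% of all gene counts in wild type and 1.90%, 1.56% and 1.65% in the knockout. Rn7sk made up most of this sum. Scaling by library totals alone, which moves the all-gene median from -0.03 to 0.26, gave -0.53 for Rn7sk, -1.20 for Rmrp, -0.84 for Rpph1 and -0.97 for Rny3, and these 4 of 6 were again called lower (background 2.49%). Terc had -0.62 under this scaling and did not pass (edgeR adjusted p = 0.194).

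Ratios between members within a library need no scaling. Of the 15 pairs, 2 did not overlap between the groups. Rn7sk had 115.5, 110.9 and 100.1 counts per count of Rmrp in wild type and 144.4, 167.7 and 222.8 in the knockout. The ratio was higher in all knockout libraries, by 0.69 on the log2 scale. The ratio of Rn7sk to Rny3 was higher by 0.52. Each had p = 0.1 by a two-sided exact permutation test, and 0.75 after Benjamini-Hochberg adjustment over the 15 pairs, so no pair passed. The ratio of Rn7sk to Rpph1 differed by 0.33, with overlapping groups. Rmrp and Rny3 had the closest profiles over the 6 libraries (root mean square difference of centred log2 TMM-CPM, 0.193). Rny1 and Terc had the farthest (0.663).

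**Figure D3:**
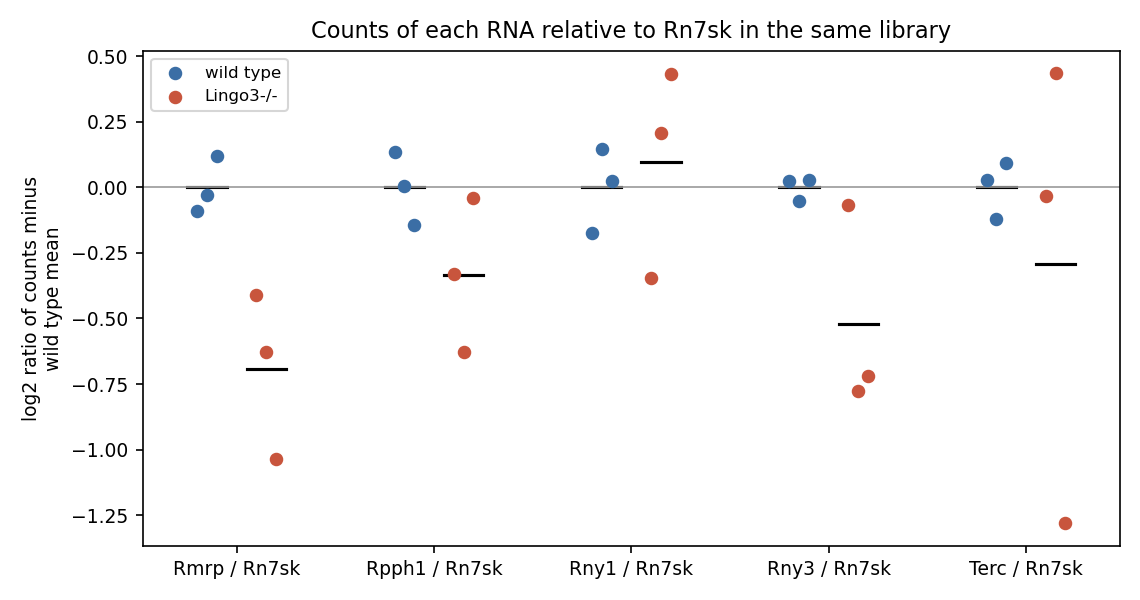
Log2 ratio of the counts of each other RNA to those of Rn7sk in every library, centred on the wild-type mean (vertical axis); points are libraries and horizontal bars are group means. Rmrp and Rny3 lie lower against Rn7sk in all knockout libraries, by 0.69 and 0.52, while the groups overlap for Rpph1, Rny1 and Terc.

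Some genes are partial copies of these RNAs, among which a read could be split. Rn7sk had 195 related short noncoding genes, of which 81 had counts, and their counts summed to 0.144% to 0.197% of those of Rn7sk. Of the 17 that were tested, 0 rose (background 9.43%) and 2 fell (background 5.97%). Among 17 genes, such counts are too few to set apart from the background. The 2 were Gm26315 (99.6% identical over 238 bases, log2 fold change -1.05, edgeR adjusted p = 0.0192) and Gm24146 (97.5% over 238 bases, -1.11, edgeR adjusted p = 0.00868). Gm24447, 100% identical over 241 bases, had -1.13 and did not pass (edgeR adjusted p = 0.0790). The values of these copies are uncertain, since a read could be split. For Rny1, 4 related genes with counts summed to 7.32% to 50.0% of its counts, so its level is uncertain too. Those of Rpph1 summed to at most 0.0252% of its counts. No related gene with counts was found for Rmrp, Rny3 or Terc. Reads without a unique alignment were tallied apart from the gene counts, so none of these sums shows how many reads were shared.

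None of the genes for protein partners of these RNAs fell. Of 73 partner genes in 6 lists, all were tested, 12 rose (16.4%, background 9.43%) and 0 fell (background 5.97%), with a median log2 fold change of 0.17. Leaving out 1 library gave 4 to 12 higher and 0 lower. It gave 4 (5.48%) without wild-type replicate 2, wild-type replicate 3, knockout replicate 2 or knockout replicate 3, where 6.56%, 5.61%, 5.05% and 3.98% of all tested genes were higher, so these shares lie near the background. Scaling by upper quartiles gave 6 higher and 0 lower (background for higher, 6.75%), and library totals alone 44 higher (background 32.1%).

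Among the 7 proteins of the 7SK particle and P-TEFb, 1 rose (14.3%, background 9.43%). Larp7, which binds the 3′ end of 7SK, went from 8.29 ± 0.431 to 11.7 ± 0.238 TMM-CPM (SD, n = 3 each; log2 fold change 0.50, edgeR adjusted p = 0.0186). Mepce, which caps 7SK, had 0.14 (edgeR adjusted p = 0.392), Hexim1, the P-TEFb inhibitor, had -0.19 (0.379; 0.10 with library totals alone), and Cdk9, the kinase, had 0.06 (0.704). Of the 11 proteins of RNase MRP and RNase P, 1 rose, a share near the background (9.09% against 9.43%): Rpp25l, at 0.54 (edgeR adjusted p = 0.0405). Pop1, the largest shared subunit, had 0.44 (edgeR adjusted p = 0.137), Rpp30 had 0.20 (0.480) and Rpp25 had -0.72 with a wide error (SE 0.55, edgeR adjusted p = 0.407). The median of this list was 0.31, and that of the 7SK list 0.06.

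Of 7 Y RNA-binding proteins 2 rose (28.6%, background 9.43%), Ybx1 at 0.48 (edgeR adjusted p = 0.00939) and Ptbp1 at 0.30 (0.0410). Both are general RNA-binding proteins. Ro60, which binds the lower stem of Y RNAs, had 0.14 (edgeR adjusted p = 0.492), and Ssb, which encodes La, had 0.28 (0.0804). Of 11 telomerase proteins 3 rose (27.3%, background 9.43%). Dkc1, the pseudouridine synthase of H/ACA particles that binds the 3′ part of Terc, went from 10.02 ± 0.527 to 17.4 ± 1.11 TMM-CPM (SD, n = 3 each; log2 fold change 0.80 ± 0.11, edgeR adjusted p = 0.00191). Nhp2, a core H/ACA protein, had 0.52 (edgeR adjusted p = 0.00881), and Naf1, an H/ACA assembly factor, had 0.75 (0.0245). Tert, the reverse transcriptase, had -0.02 (edgeR adjusted p = 0.951; 0.26 with library totals alone).

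Of 18 RNA polymerase III subunits 3 rose (16.7%, background 9.43%) and 0 fell (background 5.97%). The 3 were Polr1c, shared with polymerase I, at 0.49 (edgeR adjusted p = 0.00749), Polr3e at 0.35 (0.0425) and Polr3g at 0.50 (0.0434). The catalytic subunit Polr3a had -0.05 (edgeR adjusted p = 0.790; 0.24 with library totals alone). Of 19 promoter factors 2 rose, a share near the background (10.5% against 9.43%). They were the TFIIIC subunits Gtf3c6 at 0.46 (edgeR adjusted p = 0.0380) and Gtf3c4 at 0.36 (0.0467). Members that act at the promoters of Rn7sk, Rmrp and Rpph1 did not pass, with Snapc1 at 0.16 (edgeR adjusted p = 0.451) and Brf2 at 0.06 (0.893). The polymerase III repressor Maf1 had 0.16 (edgeR adjusted p = 0.301). Dkc1, Ybx1, Nhp2 and Polr1c passed in all 6 fits that left out 1 library, while Larp7, Rpp25l, Naf1 and Gtf3c4 missed the threshold in at least 1. Ptbp1, Polr3e, Polr3g and Gtf3c6 missed it in all 6, with lowest edgeR adjusted p-values of 0.0520, 0.0563, 0.0560 and 0.0606. With DESeq2, Polr3e, Polr3g, Gtf3c4 and Gtf3c6 missed it (adjusted p = 0.0725, 0.0659, 0.0694 and 0.0579), and with upper-quartile factors these and Ptbp1 and Rpp25l did.

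**Figure D4:**
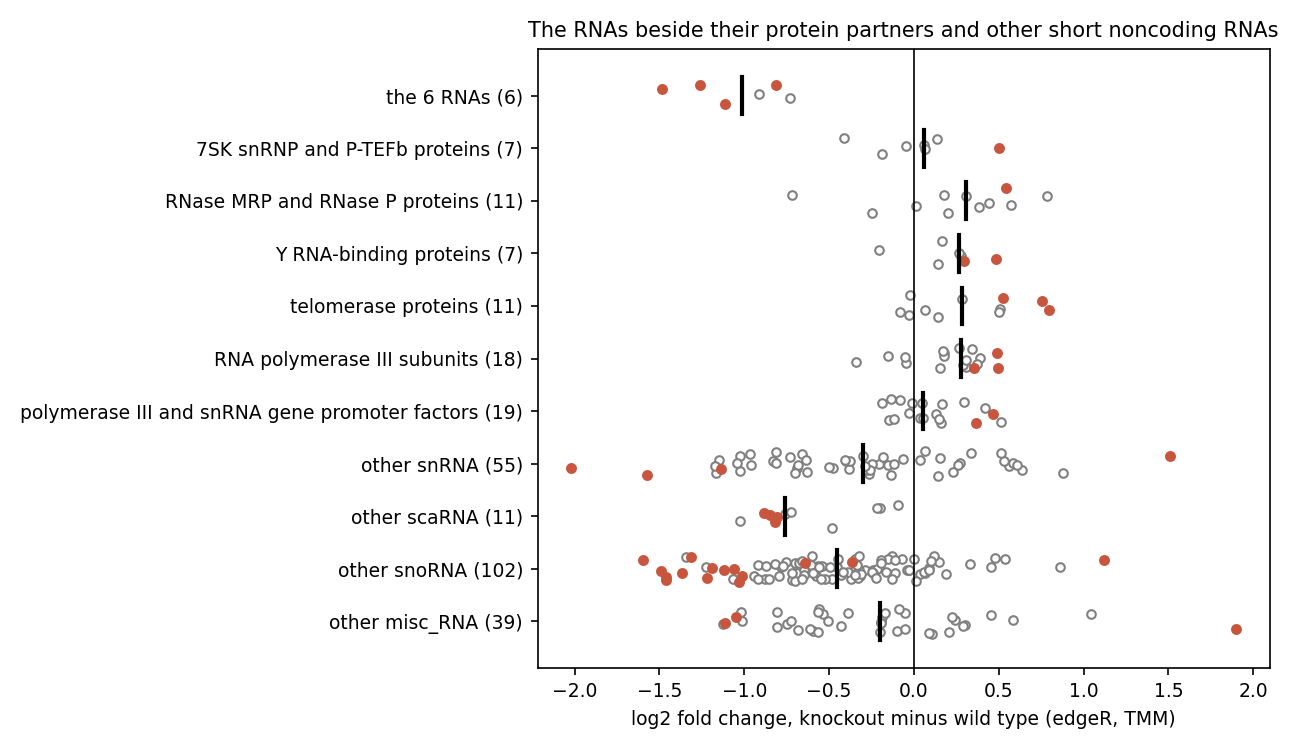
Log2 fold change (knockout over wild type, horizontal axis) of each tested gene in the 6 RNAs, the partner lists and the classes of other short noncoding RNA (number of genes in parentheses); vertical bars are medians, filled points passed the test, and the vertical scatter within a row has no meaning. The median lies at -1.01 for the 6 RNAs, between 0.06 and 0.31 for the partner lists and between -0.76 and -0.20 for the classes of other short noncoding RNA.

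Other short noncoding RNAs from the same libraries were mostly low in count. Of 3521 genes of this kind, 208 were tested, with 3 higher (1.44%, background 9.43%), 23 lower (11.1%, background 5.97%) and a median log2 fold change of -0.41. Without knockout replicate 3, 11 of 284 tested were lower (3.87%, background 2.31%) and 0 higher (background 3.98%). Without wild-type replicate 2 or knockout replicate 2, 1 was higher (backgrounds 6.56% and 5.05%), as was 1 without wild-type replicate 1 (background 1677 of 16707 genes), and without wild-type replicate 3, 5 were (background 5.61%). The 102 small nucleolar RNAs had 1 higher, 14 lower and a median of -0.45, the 11 small Cajal body RNAs 0 higher, 4 lower and -0.76, and the 55 small nuclear RNAs 1 higher, 3 lower and -0.30. The 3 with the highest CPM were Gm24265, annotated as a small nuclear RNA (log2 fold change -1.17, edgeR adjusted p = 0.0678), Gm22009, a small Cajal body RNA (-0.85, 0.0255), and Gm24407, a small nuclear RNA (-0.97, 0.113). As a share of all gene counts, the whole class of other short noncoding RNAs took 0.170% ± 0.0439 in wild type and 0.143% ± 0.0106 in the knockout (SD, n = 3 each; two-sided exact permutation test, p = 0.5).

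Likeness of profiles over the 6 libraries was measured by the root mean square difference of centred log2 TMM-CPM. Among 12631 genes with a mean of at least 1 CPM and an established symbol, those most like each RNA were found. For Rn7sk they were Tespa1 (0.0737), Tmod4 (0.0816) and Tns4 (0.0900). For Rmrp they were the small nucleolar RNAs Snora78 (0.126) and Snora57 (0.132), then S100g (0.167). For Rpph1 they were Sema6b (0.0754), Arap3 (0.0985) and the T cell receptor subunit Cd3d (0.101), one of the T cell markers above. For Rny3 they were Glp1r (0.126), Satb1 (0.137) and Txk (0.141), and for Rny1 Plekha7 (0.0936), Myom3 (0.101) and Itgax (0.111). For Terc they were Scarna17 (0.146), Snora21 (0.212) and Inka1 (0.240). Like profiles over 6 libraries in 2 groups are a description only.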

How the data were processed

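RNA was measured in 6 libraries of the colon epithelial wash fraction, prepared with a strand-keeping kit after ribosomal RNA removal, per the labels' protocols. Trimmomatic 0.39, STAR, HTSeq and DESeq2 with GRCm38 are named in the submitters' processing notes; no source used here gives the annotation release or the strand setting of the counting. The deposited counts are whole reads per gene. The authors' deposited table adds, per gene, a mean level (signal), a log2 fold change, a test statistic (score) and p-values. Gene counts per library ran from 11868000 to 28029583.

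From the counts, edgeR 4.0.16 was run in R 4.3.3 (TMM factors, filterByExpr with a minimum count of 10 and a total of 15, robust quasi-likelihood fit of genotype, Benjamini-Hochberg adjustment over 16856 genes, threshold 0.05) and tested on simulated data. Shares of counts and ratios were compared with exact permutation tests in scipy 1.17.1; counts give a limit of 3 counts where a gene is at 0. IDs matched GENCODE M21 for 45143 (98.0%). Related transcripts were found with blastn 2.17.0 (E at most 1e-10), and near copies as those with 90% identity over 70% of the length.

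The members and lists were chosen with earlier results of these data known. The named genes were the members, 16 partner genes whatever their result, up to 4 per partner list with the smallest p among those past the threshold, the 3 other short noncoding RNAs with the highest CPM and the 3 genes most like each member. Alternatives were other scaling factors, DESeq2 1.42.0, limma-voom (limma 3.58.1), other filters, a replicate block and leaving out each library. Thinned counts and scaling on nuclear protein-coding genes were added after seeing the data. Promoter sequences were not used here.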

Additional observations from a re-analysis of the deposited data

How the results depend on the processing

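The 4 calls (Rn7sk, Rmrp, Rpph1, Rny3) held under each alternative run, except Rn7sk without knockout replicate 3 (-0.80, adjusted p = 0.0658). Rny1 passed under none. Terc passed with DESeq2 (-0.92), with no filter (-0.90) and with counts thinned to the smallest total (-1.14). Leaving out 1 library gave log2 fold changes from -0.87 to -0.66 for Rn7sk, -1.71 to -1.26 for Rmrp, -1.25 to -0.94 for Rpph1, -0.87 to -0.57 for Rny1, -1.63 to -1.06 for Rny3 and -1.19 to -0.61 for Terc. Some log2 ratios changed sign over these: Rn7sk to Rny1 (-0.32 to 0.070), Rn7sk to Terc (-0.20 to 0.66), Rpph1 to Rny3 (-0.057 to 0.41), Rpph1 to Terc (-0.68 to 0.47), Rny1 to Terc (-0.27 to 0.74) and Rny3 to Terc (-0.62 to 0.26). Partner genes called higher numbered 6 with upper-quartile factors (8.22%, background 6.75%) and 44 with library totals alone (60.3%, background 32.1%). They numbered 7 with thinned counts (9.59%, background 8.81%) and 7 with scaling on nuclear protein-coding genes (9.59%, background 8.01%). Apart from library totals alone, these shares lie near the background. Leaving out 1 library gave 4 to 12 partner genes higher. Other short noncoding RNAs called higher numbered 8 with library totals alone (3.85%, background 32.1%), 5 with no filter and 0 to 5 without 1 library. Those called lower numbered 45 with no filter and 11 to 24 without 1 library. With no filter 1265 were tested, so 0.395% were higher (background 6.80%) and 3.56% lower (background 5.75%). Signs turned for Hexim1 (0.10), Tert (0.26) and Polr3a (0.24) with library totals alone, for Cdk9 (-0.0053) and Brf2 (-0.0086) with upper-quartile factors, for Rpp30 (-0.035) and Brf2 (-0.037) with thinned counts, and without 1 library for Tert (-0.083 to 0.096), Polr3a (-0.095 to 0.019) and Brf2 (-0.18 to 0.18); none of these values passed. Over all genes 1589 were higher and 1007 lower; upper-quartile factors gave 1137 and 1365, and library totals alone 5415 and 420. The cause was not tested.

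Libraries share replicate numbers between the groups, but those with the same number did not deviate together (r = -0.0102, -0.117 and -0.104), and 0 of 6 libraries correlated best with their own number. A fit with the number as a replicate block called 1193 genes higher (7.08%) and 868 lower (5.15%) in all. It called 5 partner genes higher (6.85%), a share near that background, and 5 other short noncoding RNAs higher (2.40%). The same 4 members were called lower in this fit. Rny1 and Terc had the fewest counts of the 6 members in knockout replicate 3, with 14 and 12. With counts thinned to the smallest total, Terc passed and Rny1 did not. Thinning cannot add counts to the shallowest library, so what more depth would do to these calls was not tested.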

Other observations

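Genes beside the 6 RNAs were read for comparison. Parp2, a DNA-damage poly(ADP-ribose) polymerase whose gene starts 74 bases from Rpph1 on the opposite strand, differed by 0.07 ± 0.11 on the log2 scale (SE; adjusted p = 0.674 in the edgeR test), at 16.1 ± 1.05 TMM-CPM in wild type and 16.96 ± 1.19 in the knockout (SD, n = 3 each). Ccdc107, which overlaps 159 bases of Rmrp on the other strand, had -0.04 (edgeR adjusted p = 0.851), and Arhgef39, the next gene, -0.05 (0.818). Ccnb1ip1, whose span holds most of Rpph1, had 1 count in wild-type replicate 2 and 0 in the other libraries. Its transcript matched 233 bases of Rpph1 at 100%, and reads that fit both genes could be set aside as ambiguous. The count of Ccnb1ip1 therefore does not show how many reads were shared. Ambiguous reads were 1.25% ± 0.0284 of all reads in wild type and 1.44% ± 0.112 in the knockout (SD, n = 3 each). Their part in the level of Rpph1 was not tested. Near Rn7sk, Ick had 0.22 (edgeR adjusted p = 0.186), Gsta4 0.20 (0.364) and the long noncoding C920006O11Rik, 281 bases away, -0.45 (0.341). Pdia4, a protein disulfide isomerase of the endoplasmic reticulum 7961 bases from Rny1, rose by 0.67 ± 0.15 (edgeR adjusted p = 0.0153).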
